A study of Drosophila melanogaster with 3 samples.

Results

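The weak reproducible regions are stretches of the fly genome that an OdsH-GFP chromatin immunoprecipitation recovered weakly but in every replicate, below the threshold of the authors' irreproducible discovery rate (IDR) set. They were taken from the 30000 rows of the list called on the pooled replicates. The regions were chosen by these signal values and by the replicate overlaps: a row counted when its signal value lay below the lowest signal value of the 8700 IDR peaks, when it overlapped no IDR peak, and when a row of each of the 3 replicate lists overlapped it by at least 1 bp. Of the 21300 pooled rows below the threshold, 1405 overlapped an IDR peak and were set aside. Of the remaining 19895 rows, 6427 met the rule, and these regions merged into 5338 separate stretches covering 2463 kb, or 1.84% of the 6 chromosome arms.

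The study sequenced chromatin from whole animals of *Drosophila melanogaster* at the white prepupa stage, both sexes together, from a transgenic line that stably carries OdsH with GFP fused to its C terminus. Chromatin was sonicated to fragments of 200 to 800 bp and precipitated with an antibody to GFP. The labels give 3 biological replicates of 1 group, with no other stage, genotype or sex, and do not state the age in hours or the promoter that drives the fusion. All 3 replicate lists were called against 1 shared control alignment, per the deposited file lists, so features of that control enter each of them. In whole animals, strong binding in few cells and weak binding in many cannot be told apart.

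OdsH is a homeodomain transcription factor of the paired class, whose gene neighbours that of its paralog *unc-4* on the X chromosome. Homeodomains contact short AT-rich DNA whose core is often written TAATTA, and paired-class homeodomains can bind as dimers to pairs of inverted sites. The IDR procedure sets a threshold from how far peak ranks repeat between replicates, and rows under it can hold both weaker binding and background. Here 21300 of the 30000 pooled rows lay below the lowest signal value of the 8700 IDR peaks. A row's side of the threshold thus followed its pooled signal, not its own agreement between replicates. White prepupae form at the end of larval life, when a pulse of the steroid hormone ecdysone starts metamorphosis.

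The summit sequences below show what the regions look like where a paired-class dimer word occurs, made of TAAT and ATTA with 3 bases between them. They are the 5 regions with the lowest mean rank over the replicate lists (rank 1 is the strongest row) among those whose summit window, 50 bp to each side, holds the word and no annotated exon. Each is given 5′ to 3′ on the forward strand of the RefSeq release 6 assembly (dm6), with the dimer word, the homeodomain word TAATTA and its variant TAATTG (read on either strand) in capitals.
upstream of SCCRO, chr3L:15563282-15563382: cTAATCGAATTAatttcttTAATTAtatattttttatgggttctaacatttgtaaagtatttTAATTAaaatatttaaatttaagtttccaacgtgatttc
intergenic, chr2L:1455666-1455766: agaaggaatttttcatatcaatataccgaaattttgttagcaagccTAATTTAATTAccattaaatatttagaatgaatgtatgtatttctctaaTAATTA
intergenic, chr3L:18245826-18245926: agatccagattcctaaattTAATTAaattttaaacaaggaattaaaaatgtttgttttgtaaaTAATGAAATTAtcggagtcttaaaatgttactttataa
intron of Sox102F, chr4:831917-832017: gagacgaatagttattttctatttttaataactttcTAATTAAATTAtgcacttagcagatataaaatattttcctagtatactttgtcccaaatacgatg
intron of slif, chr3L:22883752-22883852: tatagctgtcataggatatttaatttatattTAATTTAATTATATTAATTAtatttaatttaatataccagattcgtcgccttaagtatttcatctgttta

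The region upstream of *SCCRO* (summit at -95 bp from the start site) had a pooled signal value of 65.6 and ranks 5731, 9298 and 7250 in replicates 1, 2 and 3. The nearest replicate summits lay 1, 33 and 232 bp away, and in 1 or more replicates its rows lay nearer to another pooled row. The *Sox102F* intron, inside a gene for a Sox-family transcription factor on chromosome 4, had a pooled value of 77.4 and ranks 13287, 7041 and 9414. The region in *slif*, which encodes an amino acid transporter, had a pooled value of 72.2 and ranks 9130, 14635 and 6998. All 5 windows were AT-rich, with GC content from 17.8 to 24.8%. They are not typical of the set, since the dimer word occurred at 74 of the 6427 summits (1.15%).

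Most regions carry none of these words. The 4 regions at the *OdsH* locus (the gene with 20 kb to each side) and 4 regions at genes of signalling, hormone response and cuticle are shown to give that range. The same words are in capitals.
OdsH intron, chrX:17799240-17799340: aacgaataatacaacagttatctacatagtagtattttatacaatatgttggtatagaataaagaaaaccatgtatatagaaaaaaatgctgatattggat
between unc-4 and OdsH, chrX:17782192-17782292: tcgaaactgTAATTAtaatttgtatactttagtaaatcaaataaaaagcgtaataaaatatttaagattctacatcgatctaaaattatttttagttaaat
between unc-4 and OdsH, chrX:17779613-17779713: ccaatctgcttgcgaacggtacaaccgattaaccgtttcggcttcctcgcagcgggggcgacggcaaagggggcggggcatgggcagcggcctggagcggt
beyond the 3′ end of OdsH, chrX:17814251-17814351: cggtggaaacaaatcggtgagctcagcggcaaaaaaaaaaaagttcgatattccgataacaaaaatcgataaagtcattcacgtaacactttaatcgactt
within br, chrX:1612010-1612110: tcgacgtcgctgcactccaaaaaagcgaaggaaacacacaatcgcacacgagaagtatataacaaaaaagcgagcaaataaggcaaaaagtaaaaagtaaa
within bi, chrX:4426856-4426956: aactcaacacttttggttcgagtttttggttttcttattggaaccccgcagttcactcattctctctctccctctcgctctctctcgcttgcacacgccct
intron of fz2, chr3L:19234458-19234558: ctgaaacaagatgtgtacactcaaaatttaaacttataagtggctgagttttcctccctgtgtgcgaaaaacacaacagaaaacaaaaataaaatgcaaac
upstream of Cpr72Ea, chr3L:16362283-16362383: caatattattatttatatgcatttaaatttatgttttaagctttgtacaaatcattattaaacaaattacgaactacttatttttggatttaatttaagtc

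GC content over these 8 windows ran from 17.8%, at *Cpr72Ea* and at the AT-rich window between *unc-4* and *OdsH*, to 66.3% at the GC-rich window between the same genes. Of the *OdsH* locus regions, the one in the *OdsH* intron had a pooled signal value of 54.8 and ranks 19927, 21215 and 9883 in replicates 1, 2 and 3. It was the only weak reproducible region within the 23 kb span of *OdsH*, which also held 4 IDR summits. The AT-rich region between the paralogs had a value of 62.6 and ranks 18511, 10447 and 8323, and the GC-rich one had 35.9 and ranks 10211, 15435 and 13764. The span of *unc-4* held no weak reproducible region and no IDR summit.

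How often replicates met at a weak row depended on its pooled rank. The share overlapped by all 3 replicates was 98.9, 97.2, 96.0, 95.3 and 92.9% in successive groups of 20% of the IDR peaks, from strong to weak. Below the threshold it was 85.4% at pooled ranks 8701 to 11250, 61.7% to rank 15000 and 34.7% to rank 18750. It was 16.2% to rank 22500, 10.1% to rank 26250 and 7.099% to rank 30000. Over all candidate rows the rule therefore kept 32.3%, a share fixed by the rule and by the length of the lists. A further 7251 rows were overlapped by 2 replicates, 5251 by 1 and 966 by none. Each replicate list covered 7.97 to 8.29% of the arms, and its rows can overlap a pooled row by position alone. How much of the agreement at the lowest ranks comes from this was not tested.

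**Figure D1:**
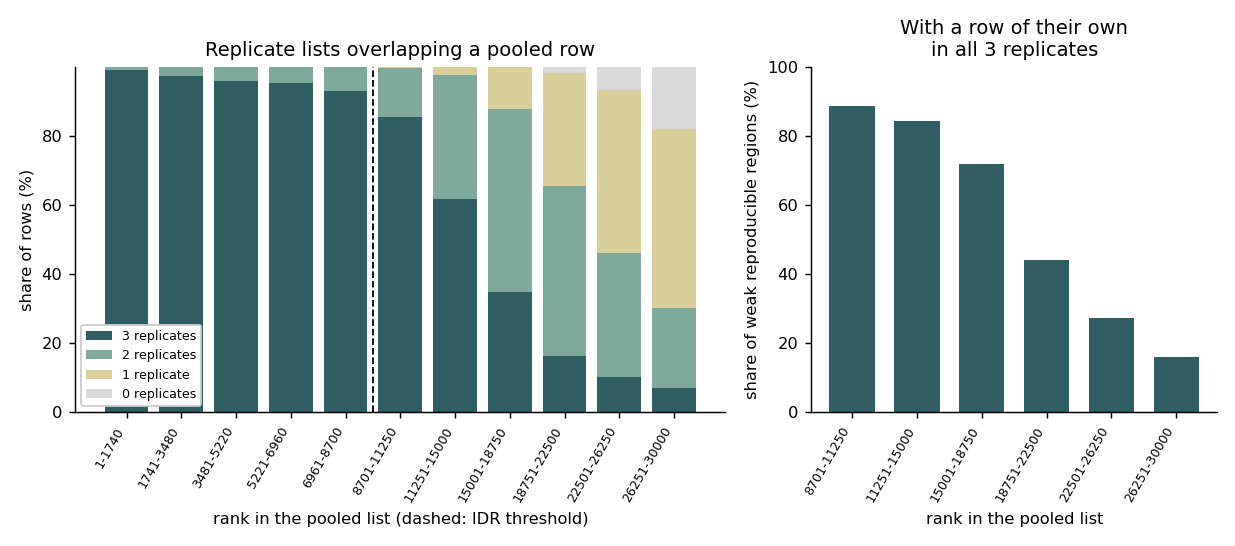
Left, share of pooled rows (y axis, percent) overlapped by 0, 1, 2 or 3 replicate lists in classes of pooled rank, with the IDR threshold dashed; below the threshold, rows that overlap an IDR peak are left out. Right, share of the weak reproducible regions with a row of their own in all 3 replicates. Full support fell from 85.4% just below the threshold to 7.099% in the last class, and own rows from 88.7 to 16.02%.

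The signal values that chose the regions are given as a description. The strongest region had a pooled value of 77.546, against 77.548 for the weakest IDR peak, so the threshold fell within a continuous run of values. Pooled values of the regions ran from 17.7 to 77.5 with a median of 46.9 (quartiles 34.7 and 60.3), while the rows left out had a median of 25.2. The authors' deposited q-value was at or below 0.05 for 4083 regions (63.5%) and for 1683 of the 13468 rows left out (12.5%). Nearly all regions (99.8%) had 1 width, 416 bp.

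Among the regions just under the threshold, *Jhbp1*, named as a juvenile hormone binding protein, held the top pooled value of 77.5 in an intron, with ranks 13090, 7106 and 10424 in replicates 1, 2 and 3. The region at -360 bp from the start site of *CG9737* also had 77.5 and ranks 7348, 9212 and 19508. An intron of *glec*, for the adhesion protein gliolectin, had 77.5 and ranks 23608, 9097 and 6733. For these last 2 regions the weakest replicate ranked the region more than 2 times lower than the strongest, and it was a different replicate each time.

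In the replicates' own lists the regions ranked mostly below 8700, the size of the IDR set. The median rank of the strongest overlapping row was 15363 in replicate 1, 14610 in replicate 2 and 13578 in replicate 3. The strongest 8700 rows of replicates 1, 2 and 3 overlapped 551, 405 and 766 regions. Those of all 3 replicates overlapped only 16 regions, 0.0804% of the candidate rows, and those of no replicate overlapped 4894 regions (76.1%). The lowest rank exceeded the best by a median of 1.71 times over the 3 lists. Spearman's rho of ranks between replicates, over the 6427 regions, was 0.22, 0.18 and 0.25, against 0.84, 0.82 and 0.83 over IDR peaks overlapped by both lists. This comparison spans a much narrower range of signal for the weak regions, and over the weakest 20% of the IDR peaks, here called the weakest IDR peaks, rho was 0.01, 0.01 and -0.10. All these values come from the libraries that the rule used and carry no test.

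**Figure D2:**
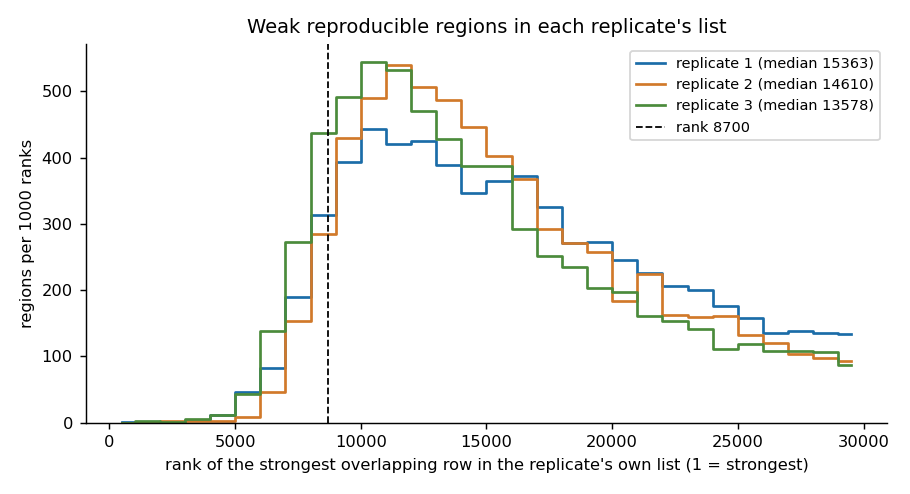
Number of weak reproducible regions per 1000 ranks (y axis) by the rank of their strongest overlapping row in each replicate's own list (x axis, 1 is strongest), 1 line per replicate. In all 3 replicates most regions lie to the right of rank 8700 (dashed), with medians of 15363, 14610 and 13578.

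Some regions were supported by replicate rows that lay closer to a neighbouring pooled row. A region was counted as having a row of its own when, in each replicate, it was the pooled row with the nearest summit to at least 1 overlapping replicate row. This held for 4739 regions (73.7%), and 1688 regions shared all their rows of 1 or more replicates with a nearer neighbour. The share with own rows was 88.7% at pooled ranks 8701 to 11250, 44.1% at ranks 18751 to 22500 and 16.02% at ranks 26251 to 30000. Only 26 regions had no supporting row free of an IDR peak in 1 or more replicates. The 1688 regions without own rows had a median pooled value of 32.2 against 51.1 for the others, a GC content of 38.0% against 34.3%, and a share near a transcription start site (TSS) of 21.0% against 17.2%.

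The region with the lowest mean rank shows such a case. It lies in an intron of *CG4297* at chr2L:470743-470889, 3 bp from an IDR peak, with a pooled value of 64.7 and ranks 2324, 2496 and 3290 in replicates 1, 2 and 3. The nearest replicate summits lay 188, 170 and 8 bp from its own, and it lacked a row of its own in 1 or more replicates. The next region, in an intron of *Pdp1* (a PAR-domain bZIP transcription factor) at chr3L:7856044-7856240, lay 26 bp from an IDR peak and ranked 769, 4128 and 3392. An intronic region of *mdu* at chrX:12511134-12511340 ranked 3160, 3812 and 4197 with a pooled value of only 23.5, and its replicate summits lay 289, 299 and 283 bp away. A pair of overlapping regions in the 5′ UTR of *mnb*, which encodes a protein kinase, shared the ranks 7051, 10147 and 8382 because the same replicate rows overlapped both, with pooled values of 72.5 and 26.2. Of the 10 regions with the lowest mean rank, 4 lacked a row of their own in 1 or more replicates.

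Farther from IDR peaks, *Dhps* (deoxyhypusine synthase) had a region 12 bp inside its start site and 10981 bp from any IDR peak. Its pooled value was 30.2 and its ranks were 6694, 2784 and 1548. The nearest replicate summits lay 60, 179 and 163 bp from its own. A region inside *porin*, the mitochondrial outer membrane channel, at -206 bp from the start site of *SmydA-3*, had a pooled value of 33.3 and ranks 3755, 5365 and 7163. Its nearest replicate summits lay 211, 75 and 109 bp away. At *Dhps*, *SmydA-3* and *porin* no IDR summit lay within 1000 bp of a start site.

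Taken over the whole set, replicate summits sat less tightly on these regions than on the weakest IDR peaks. The median distance from the pooled summit to the nearest replicate summit was 43, 32 and 43 bp in replicates 1, 2 and 3, against 27, 20 and 30 bp for the weakest IDR peaks. The regions' mean of 39.3 ± 6.35 bp (SD, n = 3) exceeded that of the weakest IDR peaks, 25.7 ± 5.13 bp, by 13.7 ± 2.08 bp on average. The rule used the overlap of these rows, so the distances carry no test. Rows left out had 41, 30 and 41 bp where a replicate overlapped them. Regions with a row of their own in all replicates had medians of 36, 25 and 36 bp, and the other regions 125, 91 and 119 bp. Own rows were defined by the nearest summit, so this split is partly fixed. At pooled ranks 8701 to 11250 the regions' medians were 31, 22 and 32.5 bp, close to those of the weakest IDR peaks. The 3 replicate summits of a region spanned a median of 127 bp, against 72 bp for the weakest IDR peaks that all replicates overlapped, and 1371 regions (21.3%) had every replicate summit within 50 bp of the pooled one.

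Most of the regions lay in introns and between genes. By the pooled summit, 3218 regions (50.1%) were intronic, 1806 (28.1%) intergenic and 1170 (18.2%) within 500 bp of a TSS of any annotated gene, here called near a TSS. Of positions on the arms, 39.5% were intronic and 27.2% intergenic by the same classes. The intergenic share of the regions was thus close to that of the arms. The rest comprised 88 regions in 3′ UTRs (1.37%), 43 in 5′ UTRs, 78 in other exons and 24 in coding sequence (CDS). The CDS share was 0.373% (95% exact Clopper-Pearson interval 0.239 to 0.555%, counting error only), while CDS made up 13.7% of positions on the arms. Among IDR peaks the CDS share was 0.126%, and among the rows left out 1.25%.

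Near-TSS summits were scarcer among the weak regions than among IDR peaks. The regions had to be overlapped by all 3 replicates and the IDR peaks did not, so the sets differ in more than signal. Just under the threshold, at pooled ranks 8701 to 11250, 19.8% of the regions and 39.3% of the rows left out were near a TSS. How much of the difference from IDR peaks comes from the overlap rule was not tested. By each replicate's own summits the share was 17.7, 18.1 and 18.2% for the regions (mean 18.0 ± 0.271%, SD, n = 3). For the weakest IDR peaks it was 23.1, 23.3 and 22.4%, and for all IDR peaks 30.04 ± 0.444%. The difference from the weakest IDR peaks was -4.98 ± 0.659 percentage points, with the regions lower in 3 of 3 replicates (exact paired permutation test over replicates, two-sided, p = 0.25, the smallest p that 3 replicates allow, so no such test here can pass 0.05). The regions are the same rows in every replicate and were chosen with these libraries. Their spread over replicates, here and below, therefore reflects shifts of summits on fixed rows. Among the 1326 regions that the strongest 15000 rows of each replicate overlapped, the share was 21.5% and the difference -1.42 points. The share of positions on the arms that lie near a TSS was 13.6%. Intergenic summits were correspondingly more frequent, at 28.2 ± 0.359% against 24.6 ± 0.337% for the weakest IDR peaks, again in 3 of 3 replicates (exact p = 0.25). The intergenic share of positions on the arms was 27.2%. Where a protein-coding TSS lay within 500 bp, the summit was upstream of it for 69.1% of the regions, 79.5% of the weakest IDR peaks, 83.3% of all IDR peaks and 60.2% of the rows left out.

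The replicates disagreed on the weak rows that the rule left out. Among those each replicate overlapped, 20.4 and 19.8% were near a TSS by the summits of replicates 1 and 2, but 12.8% by those of replicate 3. The regions were therefore below the rows left out in replicates 1 and 2 and above them in replicate 3 (mean difference 0.307 ± 4.42 points, exact permutation p = 1). Of the 3164 rows missing only in replicate 3, 25.5% were near a TSS, against 14.7% of the 2541 missing only in replicate 1 and 14.1% of the 1546 missing only in replicate 2. Just under the threshold, at pooled ranks 8701 to 11250, 84 of the 178 rows missing only in replicate 3 were near a TSS (47.2%). In that rank class 19.8% of the 1934 regions were near a TSS and 39.3% of the 331 rows left out. At ranks 26251 to 30000 the order was the opposite, with 20.7% of 256 regions and 12.8% of 3350 rows left out. Whether replicate 3 recovers promoters less well was not tested beyond these shares.

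**Figure D3:**
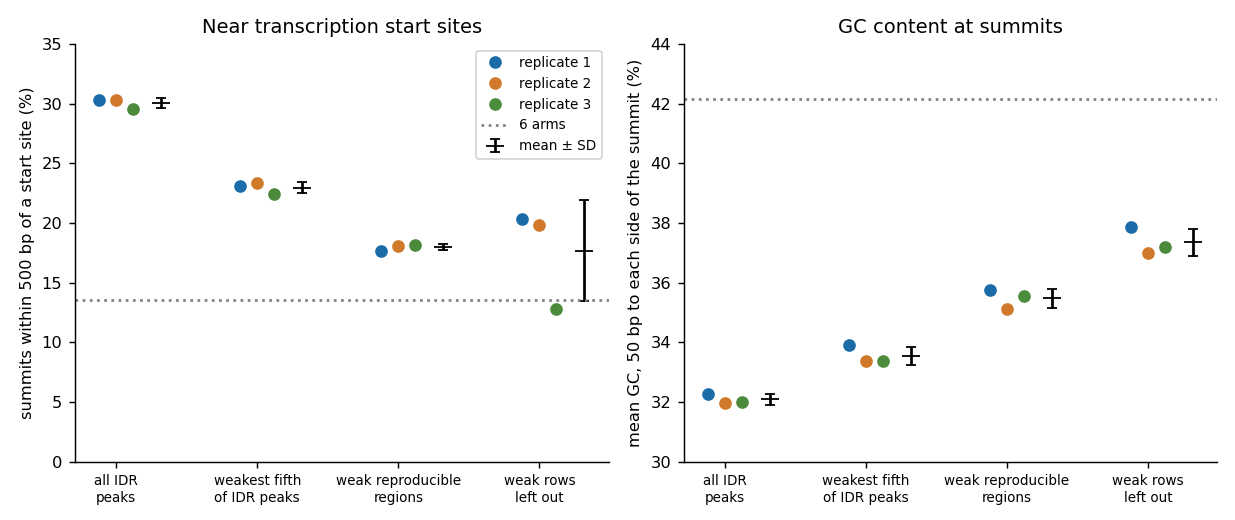
Left, percent of summits that lie near a TSS (500 bp or less); right, mean GC content of windows 50 bp to each side of the summit (percent; the axis does not start at 0). Points are replicates by their own summits, bars the mean ± SD, and dotted lines the value over the 6 arms. The weak reproducible regions lie at 18.0 ± 0.271% and 35.5 ± 0.330%, between the arms' values and those of the IDR peaks, and the rows left out differ most between replicates on the left.

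The regions were AT-rich at their summits. Mean GC content 50 bp to each side of the summit was 35.8, 35.1 and 35.6% by the summits of replicates 1, 2 and 3 (35.5 ± 0.330%, SD, n = 3), against 42.4 ± 0.0275% in windows 500 bp to either side and 42.2% over the arms. Summits differed from their flanks by -6.89 ± 0.331 points, lower in 3 of 3 replicates (exact permutation p = 0.25), and 72.3% of the regions had a pooled summit window below their own flanks. The weakest IDR peaks had 33.6 ± 0.309%, which the regions exceeded by 1.92 ± 0.239 points (exact permutation p = 0.25, 3 of 3 replicates). The rows left out had 37.4 ± 0.455%, from which the regions differed by -1.88 ± 0.239 points (exact permutation p = 0.25, 3 of 3 replicates). That comparison did not match the sets for pooled rank. By location, pooled-summit GC content was 34.1% between genes, 34.8% in introns, 37.8% near a TSS and 51.7% for the 24 CDS regions, which alone were above their flanks (44.6%). The size of the dip depends on the flank chosen. In 51 bp windows downstream of the regions' pooled summits, GC content was 43.6% at 300 bp, 42.3% at 500 bp and 40.7% at 1000 bp.

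GC content also shifted with rank inside the set. It was 33.5% at pooled ranks 8701 to 11250 and 34.3% to rank 15000, against 35.9 and 35.3% for the rows left out. At ranks 15001 to 18750 it was 36.2% against 36.1%, and to rank 22500 37.2% against 36.8%. It was 40.04% against 37.4% at ranks 22501 to 26250, and 39.98% against 38.3% to rank 30000. At matched rank the regions were thus lower in GC content than the rows left out only down to rank 15000. At ranks 22501 to 26250, 27.3% of the regions had rows of their own.

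**Figure D4:**
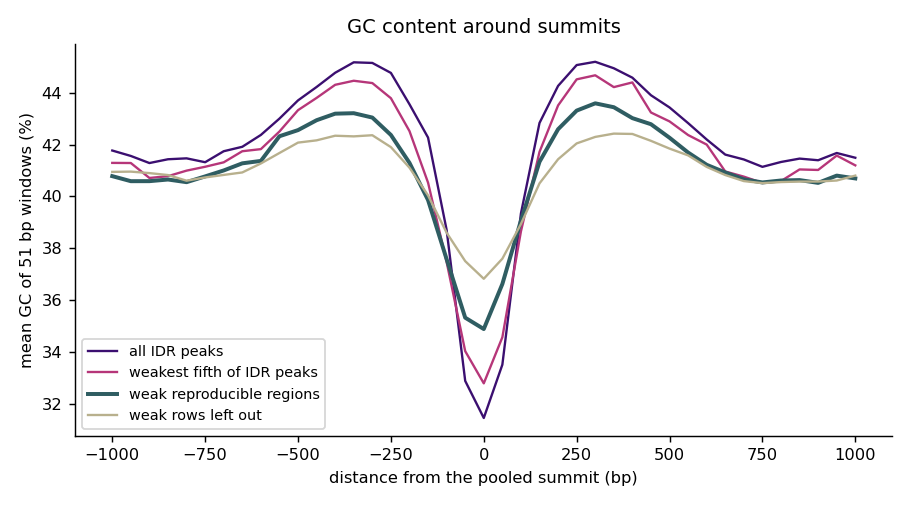
Mean GC content of 51 bp windows (y axis, percent; the axis does not start at 0) by distance from the pooled summit (x axis, bp) for all IDR peaks, the weakest IDR peaks, the weak reproducible regions and the weak rows left out. Every set dips at the summit; the dip of the regions, to 34.9%, lies between those of the weakest IDR peaks and of the rows left out.

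Of 15 words searched on both strands in the summit windows, the homeodomain word TAATTA was modestly more frequent at the regions than in their flanks. It occurred at 567 pooled summits (8.82%), against 6.65% of flanking windows, and at 8.36, 8.81 and 8.96% of the summits of replicates 1, 2 and 3. The ratio to flanks was 1.25 ± 0.0164 over replicates, against 1.29 ± 0.0443 for the weakest IDR peaks, 1.64 ± 0.0158 for all IDR peaks and 1.12 ± 0.0356 for the rows left out. By pooled summits, TAATTA was at 9.31% of the regions and 6.95% of the rows left out at pooled ranks 8701 to 11250. At ranks 11251 to 15000 it was at 9.46 and 8.71%, and at ranks 15001 to 18750 at 8.65 and 9.14%. In no lower rank class was it more frequent at the regions. The dimer word, whose matches can contain TAATTA, was at 1.15% of pooled summits and 0.599% of flanking windows. Its ratio over replicates was 1.70 ± 0.176, against 2.91 ± 0.417 for the weakest IDR peaks, 2.54 ± 0.225 for all IDR peaks and 1.19 ± 0.0812 for the rows left out. At matched pooled rank the dimer word went both ways. It was at 1.24% of the regions and 2.42% of the rows left out at ranks 8701 to 11250, and at 1.34 and 1.23% to rank 15000. With flanks 1000 bp away the ratio for the regions was 1.11 (exact permutation p = 0.5), and the excess was then not seen in every replicate. TAATTG was as frequent at summits as in flanks, at 10.5 and 10.4%. With flanks 500 bp away, TAATTA and the dimer word were above their flanks in 3 of 3 replicates (exact permutation p = 0.25). With flanks 1000 bp away the TAATTA ratio for the regions was 1.16 in place of 1.25 (exact permutation p = 0.25).

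Base composition moved with these words. Among windows of less than 25% GC, TAATTA was in 19.3% of the regions' summits and 19.8% of their flanks, and from 25 to 30% GC in 12.4 and 12.7%. From 35 to 40% GC the word was in 6.23% of summits and 8.73% of flanks, and at 45% or more in 2.98 and 2.48%. Within 5 of the 6 GC classes, the last being the exception, TAATTA was thus no more frequent at summits than in flanks. The dimer word was in 3.11% of summits and 3.44% of flanks under 25% GC, and in 2.04 and 1.53% from 25 to 30%.

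Other words separated promoter-near regions from the rest. TATCGATA, the DNA replication-related element of many fly promoters, was at 21 of the 1170 near-TSS summits (1.79%, flanks 0.299%) and at 5 of the 3218 intronic ones (0.155%). GGTCACAC, a core promoter word, was at 1.45% of near-TSS summits and 0.218% of intronic ones. GAGAGAG, the word of GAGA factor, was at 3.25% near a TSS (flanks 2.22%) and 1.12% in introns (flanks 1.96%). Over all regions its ratio to flanks was 0.776 ± 0.0384, against 0.430 ± 0.0241 for all IDR peaks. With flanks 1000 bp away the regions' ratio was 0.977 (exact permutation p = 1), so no depletion was seen there. The CA repeat word CACACACA and the E-box CACGTG were also scarcer at summits than in flanks, with ratios of 0.541 ± 0.0556 and 0.585 ± 0.0705. Tracts of 8 A were at 11.7% of summits and 7.24% of flanks. The unrelated control word ACTGATCG was at 7 summits, with ratios from 0.857 to 2.00 over replicates, which shows how far a rare word can move.

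**Figure D5:**
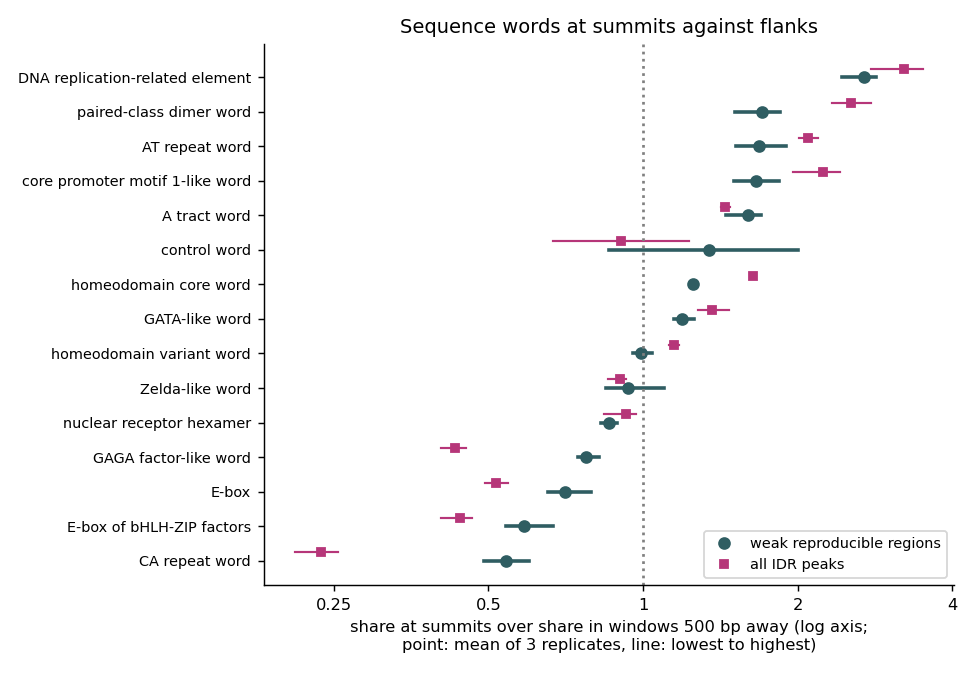
Ratio of the share of summit windows holding a word to that of windows 500 bp away (x axis, log scale) for 15 words (y axis), for the weak reproducible regions and all IDR peaks; points are means of 3 replicates and lines run from the lowest to the highest replicate. For the homeodomain core word the regions lie at 1.25 and the IDR peaks at 1.64; the control word spans 0.857 to 2.00 at the regions.

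Summits in annotated transposable elements were few. Only 37 regions (0.576%) had a summit in an annotated transposable element, against 5.93% of the arms, and 24 of these were in the short element INE-1. The share was low in the compared sets too, at 0.310% of all IDR peaks, 0.287% of the weakest IDR peaks and 1.00% of the rows left out. Soft-masked bases, which include simple repeats, made up 23.5% of the summit windows, 17.5% of their flanks and 20.1% of the arms. In summit windows of all IDR peaks they made up 24.2%, and in those of the rows left out 22.2%.

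By chromosome arm, the X held 1381 regions (21.5%; 95% exact interval 20.5 to 22.5%), 1.22 times its share of assembled length. The interval covers counting error only and treats regions as separate, although 33.3% of them overlapped or touched another. It is not a test against the share of length. *kirre*, *Ten-a* and *CG43658*, the genes whose spans held most regions (46, 25 and 23), lie on the X. On the X 36.6% of candidate rows met the rule, against 30.2 to 32.3% on the large autosomal arms and 23.1% on chromosome 4, which held 50 regions. Density was 58.7 regions per Mb on the X and 37.2 to 52.1 per Mb on the large autosomal arms. Males and females were pooled, so the dose of X chromatin in the sample is not given, and its part in this was not tested.

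The regions lay between the rows left out and the weakest IDR peaks in their distance to IDR peaks. The rule kept regions and rows left out from overlapping an IDR peak, while IDR peaks could overlap one another. Gaps of 100 bp or less held for 0.296% of the regions, 0.045% of the rows left out and 10.3% of the weakest IDR peaks. The comparison with the weakest IDR peaks is therefore partly fixed by the rule. The gap to the nearest IDR peak had a median of 2803 bp, against 4010 bp for the rows left out and 1965 bp from one of the weakest IDR peaks to the next IDR peak. It was 1000 bp or less for 1623 regions (25.3%), for 19.4% of the rows left out and for 35% of the weakest IDR peaks. Another region overlapped or touched 2143 of them (33.3%). The genes with 10 or more regions in their span numbered 61, with a median length of 93.0 kb against 2.17 kb for all protein-coding genes. *kirre*, an immunoglobulin adhesion gene of myoblast fusion and eye patterning, held 46 regions and 38 IDR summits in 394 kb. *Ten-a*, a teneurin of synaptic partner matching, held 25 regions and 14 IDR summits. *fru*, the BTB zinc-finger gene of male courtship, held 20 and 10, *CG43658* 23 and 26, and *jing*, a zinc-finger gene, 19 and 10. These genes were named for having the most regions, so their counts are a description.

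Near start sites, 1270 of 13945 protein-coding genes (9.11%) had a region within 1000 bp of a TSS. For 815 of them (5.84%) no IDR summit lay there, so the region was the only one of the 2 kinds. These 815 genes had a median length of 3946 bp and a median of 1 TSS, and the 455 genes with both kinds had 12945 bp and 3 TSSs. Longer genes with more start sites have more chances to hold a region, and the gene lists below differ in both.

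Of 29 genes of the ecdysone response, 12 had a region near a start site (41.4%) and 5 of them had no IDR summit there. The list's genes had a median length of 21112 bp. At *br*, the BTB zinc-finger gene of the early response, the region lay at -248 bp from a start site with a pooled value of 64.5 and ranks 12422, 10676 and 11438 in replicates 1, 2 and 3. *Eip93F*, a transcription factor gene of metamorphosis, had a region 555 bp inside a start site with a value of 40.8 and ranks 10422, 15637 and 16672. *Eip78C*, a nuclear receptor gene, had a value of 55.2 and ranks 15905, 15642 and 11956. The 3 replicates ranked *br* alike, and *Eip93F* was stronger in replicate 1. Of 11 ecdysteroid synthesis genes, 1 had a region, *shd*, the hydroxylase that makes 20-hydroxyecdysone, with ranks 12450, 11854 and 10785.

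The lists of signalling genes of patterning differed in how many genes had each kind. For comparison, 3209 of all 13945 protein-coding genes had an IDR summit within 1000 bp of a TSS. In the Wingless and Hedgehog list 7 of 20 genes had a region, 6 of them without an IDR summit. In the same list 4 genes had an IDR summit, a share close to that over all genes. *ptc*, the Hedgehog receptor, had a region at -276 bp from a start site with a pooled value of 76.2 and ranks 7250, 13453 and 8272. *fz2*, a Wnt receptor, had 72.2 and ranks 11483, 7585 and 12230. *ci*, the transcription factor of Hedgehog signalling, had 46.2 and ranks 14626, 9094 and 11433, and lacked a row of its own in 1 or more replicates. In the Dpp list 6 of 17 genes had a region, 5 without an IDR summit, and 9 had an IDR summit. The T-box gene *bi*, a Dpp target, had 76.3 and ranks 13212, 9124 and 7237, and the BMP ligand gene *gbb* had 77.2 and ranks 6497, 13207 and 16899. *shn*, which encodes a zinc-finger protein of Dpp signalling, had a value of only 22.3 but ranks 4651, 16021 and 9038, the first far ahead of the others.

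In the EGF receptor list 4 of 15 genes had a region and 7 an IDR summit. *sty*, an inhibitor of the pathway, had a pooled value of 30.5 and ranks 16698, 15939 and 9388, and *Egfr* itself had 53.3 and ranks 10031, 21295 and 12933. Of 14 Notch genes 2 had a region and 7 an IDR summit. *kuz*, the protease that cleaves Notch, had 65.5 and closely placed ranks of 10238, 8754 and 8456, while *numb*, a Notch inhibitor, had 63.5 and ranks 29110, 10600 and 13285, the first close to the end of the list.

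Among homeobox genes, 4 of 11 in the NK list had a region near a start site, 3 without an IDR summit. The counts were 0 of 8 for Hox genes and 0 of 25 for paired-class genes, *OdsH* and *unc-4* among them, against 9.11% of all genes. Lists this short can hold no region at that share, so these counts are not read as a difference between families. *C15* had a pooled value of 72.0 and ranks 15167, 11574 and 6183. *Dr*, a dorsoventral patterning gene also known as msh, had 61.3 and ranks 24007, 8670 and 23651, so it was strongest in replicate 2. *NK7.1* had a summit 1 bp from a start site, a value of 56.6 and ranks 19088, 10865 and 18435.

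Of 86 cytosolic ribosomal protein genes 8 had a region (9.30%), close to all genes, although 56 had an IDR summit. *RpS5b*, with a region at -18 bp and no IDR summit, had a pooled value of 65.1 and ranks 10754, 13925 and 7185. *RpL39* and *RpL17* had both kinds, with region values of 77.4 and 63.2. Of 73 mitochondrial ribosomal protein genes 2 had a region (2.74%), and 32 had an IDR summit (43.8%). Of 15 insulator and promoter factor genes 2 had a region and 8 an IDR summit. *Trl*, which encodes GAGA factor, had a value of 58.5 and ranks 9583, 8397 and 13533 but lacked a row of its own in 1 or more replicates, and *mod(mdg4)* had 56.0 and ranks 12074, 10538 and 16379. Of 19 heat shock genes 1 had a region.

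Genes of nerve, muscle, cuticle and sperm were mixed. In the axon guidance list 6 of 28 genes had a region, among them *Sema2a* with a pooled value of 61.0 and ranks 10008, 14675 and 12800. The lists of Dpr, DIP and beat-side adhesion proteins had 1 of 32 and 1 of 22 genes, *dpr2* with a value of 51.3 and *beat-IIIc* with 66.8. In the ion channel list 3 of 30 genes had a region (10%, against 9.11% of all genes), and none of these an IDR summit. They were potassium channel genes, with values of 49.7 for *SK*, 43.5 for *eag* and 48.9 for *Sh*. The potassium channel genes *Shab*, *Shal*, *Shaw*, *slo*, *KCNQ* and *sei* of the same list had no region. None of 21 muscle genes had a region, which a list this short can also show at the share over all genes. In the cuticle list 7 of 112 genes (6.25%) had a region, led by *Cpr72Ea* with 76.2 and ranks 11474, 9364 and 10334. In the spermatogenesis list 4 of 33 genes had a region and none of these an IDR summit. *bol*, an RNA-binding regulator of meiosis in males, had a value of 55.2 and ranks 9772, 13912 and 9369. *Mst87F*, a sperm tail protein gene, had 35.8 and ranks 12198, 21985 and 12213.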

How the data were processed

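ChIP-seq peak lists of 3 biological replicates were used as deposited, on build dm6, with dm3 lists for 1 count. For each replicate and for the pool the authors deposited 30000 rows, and for the series 1 IDR set of 8700 peaks. The authors' signal value ranked rows within 1 list only, since its scale differs between lists. The −log10 q-value that the authors deposited reaches a ceiling at 4.19 and was used only to count rows at q of 0.05 or below. The deposited summit offset (other unit, bp) placed each summit. An aligner or peak caller was not given in the sources used here. Per the deposited file lists, replicate lists share 1 control, and the pooled list has a further input whose role is not stated. Read depth was not analysed here and is unknown.

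Overlaps, locations, GC content and words were computed with Python 3.11.15, numpy 2.4.6, pandas 2.3.3, scipy 1.17.1 and matplotlib 3.10.9. Genes came from Ensembl release 115 and sequence from the soft-masked RefSeq release 6 assembly, which is dm6. Location classes were assigned in the order near a TSS (500 bp), 5′ UTR, CDS, 3′ UTR, other exon, intron, intergenic. Windows ran 50 bp to each side of a summit, with flanks centred 500 bp to either side. Regions were compared with the weakest 20% of the IDR peaks, all IDR peaks and the 13468 candidate rows left out. Per-replicate values used that replicate's nearest overlapping summit. Differences were tested by exact sign-flip permutation over 3 replicates, two-sided, whose smallest p is 0.25. The compared sets were fixed beforehand from these libraries, apart from comparison rows that a replicate did not overlap. SDs and exact p therefore do not measure variation in which rows are called. Regions are not replicates, so nothing was tested over regions. The overlap, rule, word and permutation code was tested on simulated data.

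The regions, the 20 gene lists (621 genes matched, 22 symbols did not) and the 15 words were chosen with earlier results of these data known. Named regions were the 10 with the highest pooled value, the 10 with the lowest mean rank, 3 per location class, 5 genes with most regions, 10 genes with a region and no IDR summit, up to 3 genes per list, and *OdsH* and *unc-4*. The regions whose sequences are shown were chosen after their values were seen. Alternatives covered the overlap rule, list length, distance to IDR peaks, build, TSS distance, window, flank and each replicate left out.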

Additional observations from a re-analysis of the deposited data

How the results depend on the processing

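The count of 6427 regions depended on how much of each list was used. It was 1326 with the strongest 15000 rows of each replicate, 16 with the strongest 8700 rows, and 4027 with the strongest 15000 pooled rows. These 3 alternatives remove rows by construction. Other overlap rules gave 4676 (reciprocal overlap of 50%) and 4884 (a replicate summit inside the row), the dm3 lists 6561, and leaving out a replicate 7973 to 9591. Of 2 alternatives chosen after seeing the data, a row of its own in every replicate gave 4739 and replicate rows free of IDR peaks 6401.

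Location, GC content and summit distance kept their direction under the alternatives tried, but with the strongest 15000 rows of each replicate the near-TSS difference was -1.42 in place of -4.98 points. With flanks 1000 bp away the ratio was 1.16 in place of 1.25 for TAATTA and 1.11 for the dimer word. It was 1.5 in place of 2.70 for TATCGATA, and 0.977 for GAGAGAG. The ratio of TAATTG to flanks, 0.990 over the replicates' pooled counts, was 0.964 to 1.01 with a replicate left out. That of AGGTCA, 0.859, was 1.003 in windows of 25 bp to each side; the cause was not tested. With 3 replicates the smallest exact permutation p is 0.25, so these tests cannot pass 0.05. Depth is unknown, so intervals cover counts of regions only. No paired analysis was possible because the series holds 1 group, so that replicate numbers pair no groups; the exact tests compare sets of regions within each replicate.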
